A study of Homo sapiens with 24 samples.

Results

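The collagen genes described here are COL1A1, COL1A2, COL3A1, COL5A1 and COL5A2 of the fibril-forming collagens, COL4A1 and COL4A2 of the basement membrane, and COL6A3, COL7A1 and COL12A1. They were chosen by name, as every non-control probe of the array whose accession belongs to one of these 10 genes. This gave 13 probes of 58201, for 10 of 31204 named genes. The arrays carried RNA from PLC/PRF/5 and SNU-449, both established human hepatocellular carcinoma (HCC) cell lines. In each line 4 groups of 3 independent cultures were profiled after overnight serum starvation, which all groups shared. One group stayed untreated (control), and the others received recombinant human TGFβ1 (1 ng/mL), galunisertib (10 µM) or TGFβ1 and galunisertib together at these doses, each for 16 h. Galunisertib is a small-molecule inhibitor of the TGFβ type I receptor kinase. Each line stands for 1 tumor, so a difference between the lines is a difference between these 2 cell populations.

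Collagens are helical proteins of several chains, made in the endoplasmic reticulum, modified there by hydroxylation and glycosylation, and secreted into the extracellular matrix. Type I collagen, built from the COL1A1 and COL1A2 chains, is the main protein of the scar that forms in a fibrotic liver, and type IV collagen is the sheet-like network of basement membranes. TGFβ is the best known inducer of collagen synthesis in fibroblasts and in hepatic stellate cells, the usual source of collagen in the liver. It acts through receptor kinases that phosphorylate SMAD proteins, which then bind DNA at a short CAGA-containing element.

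COL4A1 and COL4A2 lie head to head on chromosome 13 and are read in opposite directions. The RefSeq promoter table (GRCh38.p14) holds a window of 300 bases, 250 before and 50 from the start site on, for 6 of the 10 genes, namely COL4A1, COL4A2, COL5A1, COL6A3, COL7A1 and COL12A1. The start sites of COL4A1 (position 110307157, minus strand) and COL4A2 (position 110307284, plus strand) have 126 bases between them, and their windows share 226 bases. The window of COL4A2 is shown because it holds both start sites of a pair of genes whose RNA moved together in SNU-449. It is chr13:110307034-110307333, plus strand, and the capitals mark the bases between the start sites.
COL4A2: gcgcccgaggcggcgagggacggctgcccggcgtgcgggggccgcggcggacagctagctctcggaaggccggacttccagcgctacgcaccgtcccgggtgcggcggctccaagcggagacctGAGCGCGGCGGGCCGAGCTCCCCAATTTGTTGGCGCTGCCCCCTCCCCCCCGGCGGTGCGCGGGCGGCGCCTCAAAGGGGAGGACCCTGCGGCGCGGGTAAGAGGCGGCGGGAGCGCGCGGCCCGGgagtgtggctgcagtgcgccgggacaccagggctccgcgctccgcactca

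For contrast, the window of COL7A1 is shown because COL7A1 fell with galunisertib alone in SNU-449, where COL4A1 and COL4A2 did not pass the test. It is chr3:48595280-48595579, minus strand, and the capitals mark the letters CAGAC, the SMAD element, and GGGCGG, the GC box bound by SP1-type factors, on either strand, none of which overlap.
COL7A1: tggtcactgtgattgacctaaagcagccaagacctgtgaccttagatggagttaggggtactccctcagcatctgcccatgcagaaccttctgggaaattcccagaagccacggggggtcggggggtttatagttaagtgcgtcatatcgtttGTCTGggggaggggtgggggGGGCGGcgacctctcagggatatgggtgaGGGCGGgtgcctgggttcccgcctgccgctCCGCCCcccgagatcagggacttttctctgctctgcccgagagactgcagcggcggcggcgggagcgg

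The COL7A1 window held 1 CAGAC, 3 GGGCGG and 1 TATAAA, the letters of the TATA box. The COL4A2 window held 0 CAGAC, 1 GGGCGG and 1 CCAAT, and the COL4A1 window 0 CAGAC, 2 GGGCGG and 1 CCAAT. The windows of COL6A3, COL12A1 and COL4A4 held 1 CAGAC each, and those of COL5A1 and COL4A3 held 0. COL4A3 and COL4A4 are further type IV genes outside the 10. Both rose with TGFβ1 in SNU-449, and COL4A3 also fell there with galunisertib alone. COL6A3 passed no comparison of treatments and COL12A1 entered no test. These letters are common. Searched on both strands, CAGAC was in 45.3% of all 35116 windows, GGGCGG in 45%, CCAAT in 34.6% and TATAAA in 11.5%. GC content was 77.7% in the COL4A2 window, 76.7% in the COL4A1 window and 62.3% in the COL7A1 window, against a median of 58.7% over all windows. A match of letters is a description of the window and not a site of binding.

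Every array carried the same probes, and levels are given as log2 of the signal over the 75th percentile of its array. A level of 0 therefore equals that percentile, and signals too dim to measure were set to a floor of -4.13. The 75th percentile lay between 145 and 262 intensity units, and 41.6% to 49.6% of probes were well above background. The replicate number is also the slide, each group took the same position on all 3 slides, and the arrays with TGFβ1 were in the second row, so position and treatment cannot be told apart. As a check of the treatments, SMAD7, SKIL and PMEPA1, direct TGFβ targets, all 3 fell with galunisertib in SNU-449 (log2 differences -1.90, -2.63 and -3.50) and all 3 rose with TGFβ1 in PLC/PRF/5 (SMAD7 by 0.80, SKIL by 1.63, and PMEPA1, not well above background in control, at least 6.04-fold). In SNU-449 TGFβ1 raised 2 of the 3, with SKIL at 0.93 (limma, adjusted p = 0.0829). TGFβ1 added to galunisertib raised all 3 in SNU-449 (median log2 2.08) and passed for 0 of the 3 in PLC/PRF/5. The mean levels of all 3 in SNU-449 had the order TGFβ1, control, both and galunisertib, with SMAD7 at 3.78, 3.12, 2.61 and 1.23. COL1A1 and COL7A1 share that order below. Hepatocyte markers were well above background on all control arrays for 8 of 8 genes in PLC/PRF/5 and for 4 of 8 in SNU-449, where ALB, APOB, TF and AHSG were not. Their summed linear level over the 75th percentile was 479 to 748 in PLC/PRF/5 control and 16.4 to 19.4 in SNU-449 control. FGB went the other way, with a mean log2 level of 4.07 in SNU-449 control and 1.78 in PLC/PRF/5 control. The SNU-449 sum rests largely on FGB, and the PLC/PRF/5 sum largely on SERPINA1 (8.78 in PLC/PRF/5 control). Of 6 fibroblast and stellate cell markers, PDGFRB and DPT were well above background on all control arrays of both lines, and PDGFRA, DCN, LUM and THY1 on none. PDGFRB, a receptor of stellate cells and fibroblasts, had mean levels of 0.72 in PLC/PRF/5 control, 1.40 with TGFβ1, 0.035 with galunisertib and 0.33 with both, and in SNU-449 of -1.30, -0.71, -2.04 and -1.42 in the same order. The summed level of the 6 markers was 2.27 to 2.38 in PLC/PRF/5 control and 0.771 to 1.17 in SNU-449 control, and in SNU-449 1.10 to 1.25 with TGFβ1, 0.765 to 0.832 with galunisertib and 0.822 to 1.13 with both, and its part in the results was not tested. In such bulk RNA, fewer cells expressing a gene and less RNA per cell cannot be told apart.

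Untreated, the lines differed in nearly every collagen gene that could be measured, always with the higher level in SNU-449. Of the 10 genes, 9 passed the filter on dim probes over all arrays and 8 were higher in SNU-449 at an adjusted p below 0.05, where 68.6% of all tested genes differed and 34.6% were higher in SNU-449. Because the 9 include genes that passed only through SNU-449, this count describes them and supports nothing further. Their median log2 difference was 4.93 (4.77 with the 4 genes unmeasured in PLC/PRF/5 at their bound), against -0.06 over all genes.

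COL1A1, the main chain of type I collagen, was at 6.43, 6.89 and 6.75 on the SNU-449 control arrays, while none of the 12 PLC/PRF/5 arrays had it well above background, so SNU-449 exceeded PLC/PRF/5 at least 1623-fold (adjusted p = 1.04e-20 by limma). The same held for COL1A2, the second chain of type I collagen, at 5.43, 5.73 and 5.69 in SNU-449 and at least 770-fold higher (adjusted p = 3.74e-25). COL6A3, a chain of the beaded filaments of type VI collagen, was at least 27.3-fold higher, and COL3A1, the chain of type III collagen, at least 3.90-fold. The bound sets the mean of the brighter group against the weakest signal called well above background on the dimmer arrays. In PLC/PRF/5 these 4 genes sat at the floor under every treatment, so nothing can be said of their response there. Their floored values do not vary, so the adjusted p values above do not measure a spread between replicates in PLC/PRF/5.

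COL4A1 and COL4A2, the chains of the common type IV collagen, were measured on all 24 arrays. COL4A1 was at 3.53, 3.99 and 3.89 in SNU-449 control and at -1.10, -1.09 and -1.23 in PLC/PRF/5 control, a 30.8-fold difference (log2 4.94, SE 0.13, adjusted p = 1e-17). COL4A2 was at 7.15, 7.47 and 7.44 against 2.14, 2.39 and 2.37, a 33.3-fold difference (log2 5.06, SE 0.12, adjusted p = 1.8e-18). No array of one line came near the other line for either gene. COL5A2, a chain of type V collagen that is laid into type I fibrils, was 17.5-fold higher in SNU-449 (4.46, 4.69 and 4.67 against 0.25, 0.52 and 0.65). COL7A1, the anchoring fibril collagen that ties basement membranes to the matrix below, was 5.12-fold higher (2.11, 2.25 and 2.03 against -0.31, -0.13 and -0.24). COL5A1, the partner chain of COL5A2, was dim in both lines, at -3.34, -2.69 and -3.27 against -2.91, -4.13 and -3.42, and its groups overlapped (log2 0.39, 95% interval -0.36 to 1.14, adjusted p = 0.348). A second COL5A1 probe was at the floor on every array.

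**Figure D1:**
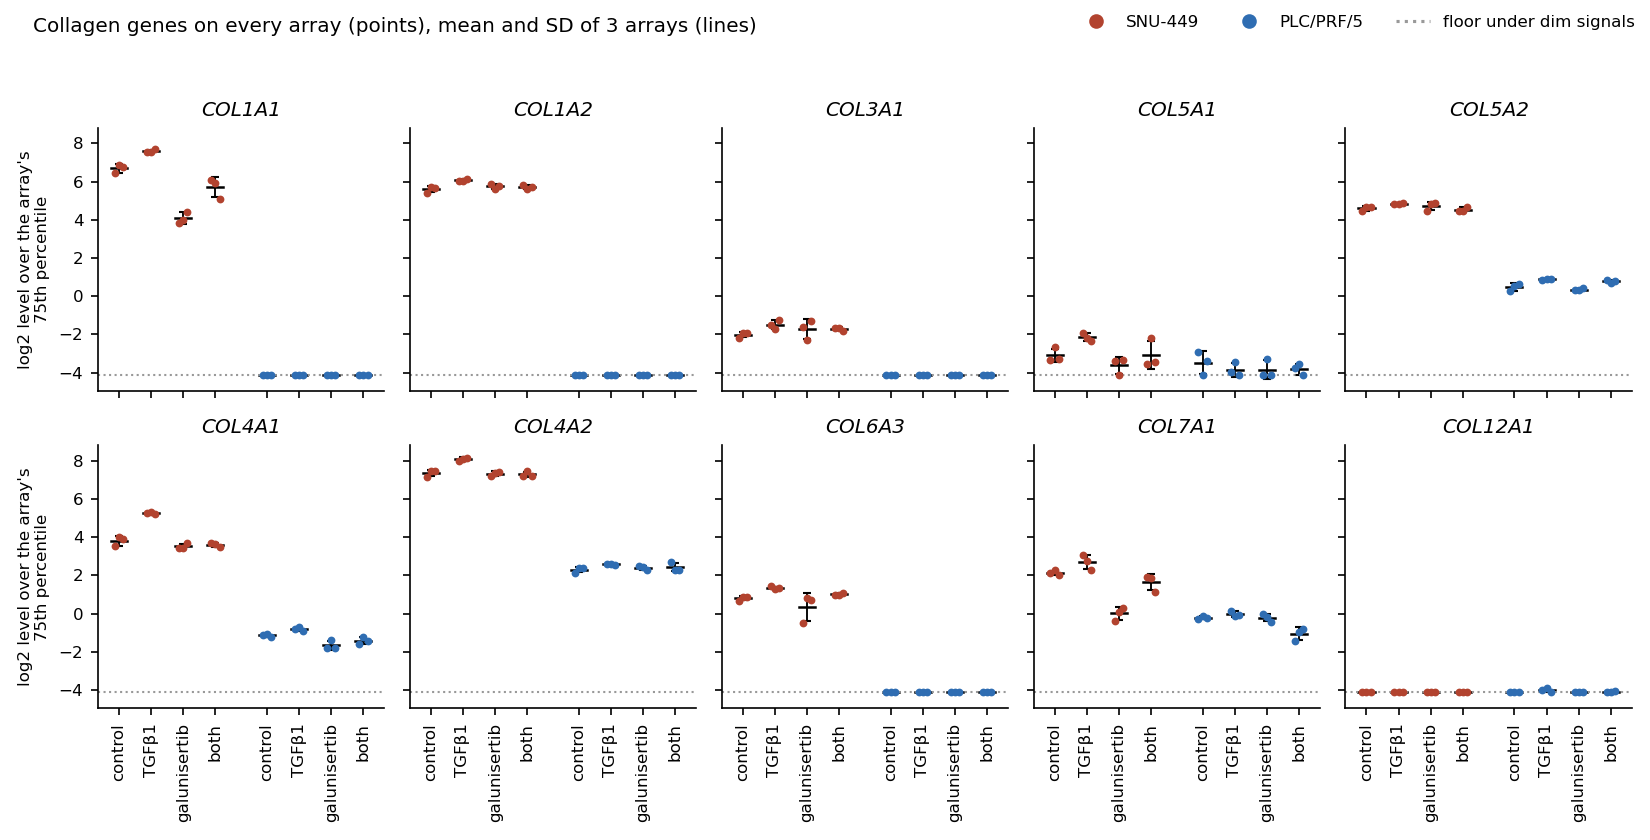
Log2 level over the 75th percentile of the array for the 10 collagen genes (1 probe each), with each of the 24 arrays as a point, the mean and SD of each group as black lines, SNU-449 in red, PLC/PRF/5 in blue and the floor at -4.13 dotted. COL1A1, COL1A2, COL3A1 and COL6A3 lie at the floor on all 12 PLC/PRF/5 arrays, and COL12A1 lies at the floor on all 12 SNU-449 arrays.

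In SNU-449 the treatments moved the collagen genes in different groupings. TGFβ1 raised 4 of the 9 tested genes, COL4A1, COL4A2, COL1A1 and COL1A2, and lowered 0, where 10.5% of all 16072 genes tested changed and 5.74% rose. With the slide as a block, which pairs these arrays, 2 of the 4 remained called, COL4A1 and COL4A2, and leaving out any 1 of the 6 arrays gave 2 to 3 calls. All 9 were higher on every TGFβ1 array than on every control array, a separation that 20.7% of all genes tested showed in this direction, and their median log2 difference was 0.57 against 0.02 over all genes. Galunisertib alone lowered 2 of 9, COL1A1 and COL7A1, and raised 0, where 7.47% of all genes changed and 2.09% fell. On every galunisertib array 3 of the 9 were below every control array, as were 6.95% of all genes. Besides COL1A1 and COL7A1, this held for COL5A1, which was near the floor and did not pass (log2 -0.53, adjusted p = 0.385 by limma). Its highest galunisertib array was at -3.3405 and its lowest control array at -3.3358. The median of the 9 was -0.29 against 0.09 over all genes.

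Galunisertib added to TGFβ1 lowered 4 of 9, COL1A1, COL4A1, COL4A2 and COL7A1, where 17.1% of all genes changed and 7.39% fell, with a median of -0.80 against 0.01 over all genes. Here 7 of the 9 were separated downward, as were 19.4% of all genes. TGFβ1 added to galunisertib raised 2 of 9, COL1A1 and COL7A1, where 1.9% of all genes changed and 0.933% rose, with a median of 0.10 against -0.05 over all genes, and 3 were separated upward, as were 5.63% of all genes. These comparisons share their arrays in pairs, so their counts are not independent. By the methods' t-test, adjusted over all genes, the COL1A1 and COL7A1 calls were lost with galunisertib alone (adjusted p = 0.055 and 0.0618, against 0.000429 and 0.00109 by limma) and with TGFβ1 added to galunisertib (0.272 and 0.255).

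**Figure D2:**
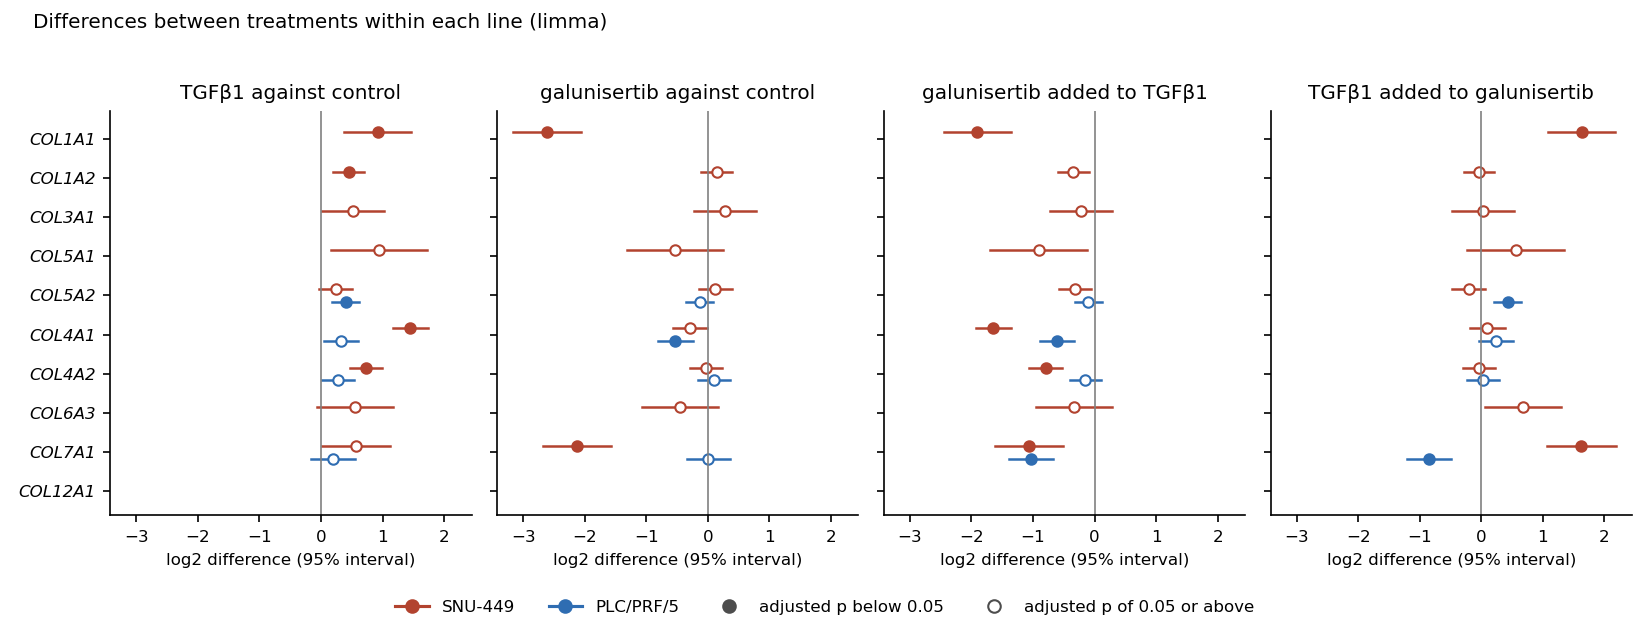
Log2 differences with 95% intervals (limma) for each collagen gene in 4 comparisons of treatments, with SNU-449 in red and PLC/PRF/5 in blue, filled points at an adjusted p below 0.05 and genes without a point not tested in that line. With galunisertib alone the 2 filled SNU-449 points are COL1A1 at -2.61 and COL7A1 at -2.13, and with TGFβ1 added to galunisertib COL7A1 is at 1.63 in SNU-449 and at -0.85 in PLC/PRF/5.

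COL1A1 had the largest difference with galunisertib of the 9 genes tested in SNU-449. From 6.43, 6.89 and 6.75 in control it went to 7.57, 7.58 and 7.69 with TGFβ1, to 3.83, 3.98 and 4.42 with galunisertib, and to 6.08, 5.93 and 5.10 with both agents. The 4 groups were ordered TGFβ1, control, both and galunisertib from high to low, and no neighbours in that order overlapped. Galunisertib alone lowered COL1A1 6.11-fold (log2 -2.61, SE 0.25, adjusted p = 0.000429), with differences of -2.59, -2.91 and -2.33 within slides 1, 2 and 3. Added to TGFβ1 it lowered COL1A1 3.74-fold (log2 -1.90, SE 0.25, adjusted p = 0.000476).

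The COL1A1 level with galunisertib also depended on whether TGFβ1 was there. TGFβ1 added to galunisertib raised COL1A1 (log2 1.63, SE 0.25, 95% interval 1.08 to 2.18, adjusted p = 0.0118), with 2.25, 1.95 and 0.68 within the slides, the smallest on slide 3. TGFβ1 without the inhibitor raised it 1.90-fold (log2 0.92, SE 0.25, adjusted p = 0.04), with 1.15, 0.69 and 0.93 within the slides. This last call was lost with the slide as a block (adjusted p = 0.0728) and on leaving out any 1 of the 6 arrays. Quantile normalization (adjusted p = 0.0611) and no filter on dim probes (0.117) lost it too. The effect of TGFβ1 was not shown to differ with and without galunisertib (interaction 0.71, 95% interval -0.07 to 1.48, adjusted p = 0.32).

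COL1A2 encodes the chain that joins COL1A1 in type I collagen. It stayed within 5.43 to 6.14 on all 12 arrays, at 5.43, 5.73 and 5.69 in control, 6.01, 6.04 and 6.14 with TGFβ1, 5.90, 5.61 and 5.76 with galunisertib and 5.85, 5.59 and 5.72 with both agents. The 3 TGFβ1 arrays lay above the other 9, and the other groups overlapped each other. TGFβ1 raised COL1A2 1.37-fold (log2 0.45, SE 0.11, adjusted p = 0.0294), a call lost with the slide as a block (adjusted p = 0.0524) and on leaving out 5 of the 6 arrays in turn. The call was also lost with quantile normalization (adjusted p = 0.0583), median scaling (0.233), no filter on dim probes (0.0514) and the plain t-test (0.0817). Its difference with galunisertib alone was 0.14 (95% interval -0.11 to 0.39, adjusted p = 0.465) and with galunisertib added to TGFβ1 -0.34 (-0.59 to -0.09, adjusted p = 0.0626).

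Within each array, the change of COL1A1 was compared with that of COL1A2. Their log2 difference went from 1.00, 1.16 and 1.07 in control to -2.07, -1.63 and -1.34 with galunisertib, a shift of -2.75, and the groups did not overlap. With TGFβ1 added to galunisertib the difference returned to 0.24, 0.34 and -0.61, a shift of 1.67. TGFβ1 alone shifted it by 0.47, to 1.56, 1.54 and 1.54. In an exact two-sided permutation test each of these 3 shifts had p = 0.1, the smallest that 3 arrays against 3 can give. The 2 probes differ in sequence and brightness, so only the shift between groups is read, not the ratio of the chains.

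**Figure D3:**
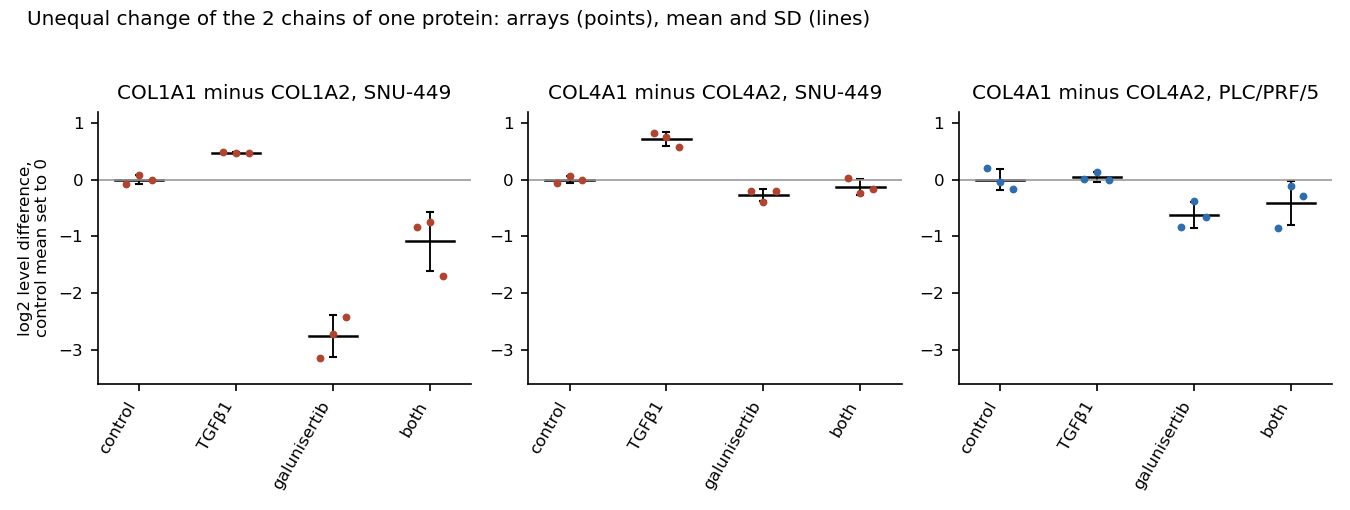
Log2 level of the first chain minus the second on each array (points), with group mean and SD (black lines) and the mean of the control arrays of the line set to 0. COL1A1 minus COL1A2 shifted by -2.75 with galunisertib in SNU-449, while COL4A1 minus COL4A2 shifted by 0.72 with TGFβ1 in SNU-449 and by -0.62 with galunisertib in PLC/PRF/5.

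The other fibrillar genes gave smaller differences, and none passed the test in a comparison of treatments in SNU-449. COL3A1 was at -2.17, -1.92 and -1.95 in control and at -1.52, -1.72 and -1.24 with TGFβ1, which did not overlap (log2 0.52, 95% interval 0.02 to 1.03, adjusted p = 0.191). Its galunisertib arrays spread from -2.32 to -1.29 and overlapped all the other groups. COL5A1 was at -3.34, -2.69 and -3.27 in control and at -1.94, -2.17 and -2.37 with TGFβ1 (log2 0.94, 95% interval 0.16 to 1.72, adjusted p = 0.131). With both agents its second array was at -2.21 and the others at -3.55 and -3.44, and with galunisertib 1 of 3 arrays was at the floor.

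COL5A2 stayed within 4.44 to 4.87 on all 12 SNU-449 arrays. Its TGFβ1 arrays (4.82, 4.84 and 4.87) lay above its control arrays, but the difference of 0.24 did not pass (95% interval -0.03 to 0.50, adjusted p = 0.257). In PLC/PRF/5 COL5A2 was the gene that TGFβ1 raised, from 0.25, 0.52 and 0.65 to 0.84, 0.88 and 0.90, or 1.32-fold (log2 0.40, SE 0.10, adjusted p = 0.0231). The same size was seen in that line with galunisertib present, from 0.31, 0.30 and 0.41 to 0.85, 0.67 and 0.78 (log2 0.43, SE 0.10, adjusted p = 0.0302). The first call was lost on leaving out 5 of 6 arrays in turn and the second on leaving out 4 of 6. The effect of TGFβ1 on COL5A2 was not shown to differ between the lines (SNU-449 minus PLC/PRF/5 -0.16, 95% interval -0.48 to 0.16, adjusted p = 0.615).

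The type IV genes COL4A1 and COL4A2 moved together in SNU-449 and differently from COL1A1. COL4A1 was at 3.53, 3.99 and 3.89 in control, 5.26, 5.30 and 5.20 with TGFβ1, 3.42, 3.44 and 3.67 with galunisertib, and 3.69, 3.66 and 3.49 with both. COL4A2 was at 7.15, 7.47 and 7.44, then 7.99, 8.11 and 8.17, then 7.18, 7.38 and 7.43, and 7.21, 7.45 and 7.21 in the same order. For both genes the TGFβ1 arrays stood above the other 9 and the remaining 3 groups overlapped.

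TGFβ1 raised COL4A1 2.74-fold (log2 1.45, SE 0.13, adjusted p = 6.83e-05), with 1.73, 1.32 and 1.31 within the slides. It raised COL4A2 1.66-fold (log2 0.73, SE 0.12, adjusted p = 0.00297), with 0.84, 0.63 and 0.73 within the slides. Galunisertib added to TGFβ1 lowered COL4A1 3.13-fold (log2 -1.64, SE 0.13, adjusted p = 1.7e-05) and COL4A2 1.74-fold (log2 -0.80, SE 0.12, adjusted p = 0.00113). Neither passed with galunisertib alone, where the differences were -0.29 for COL4A1 (95% interval -0.57 to -0.01, adjusted p = 0.184) and -0.02 for COL4A2 (-0.29 to 0.24, adjusted p = 0.928).

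With the inhibitor present, TGFβ1 left little difference in either gene. The differences were 0.10 for COL4A1 (95% interval -0.18 to 0.38) and -0.04 for COL4A2 (-0.30 to 0.22). The effect of TGFβ1 thus differed with and without galunisertib for COL4A1 (interaction -1.35, SE 0.18, adjusted p = 0.0031) and for COL4A2 (-0.77, SE 0.17, adjusted p = 0.0408), 2 of the 9 tested genes, where 2.63% of all genes passed. The COL4A2 interaction was lost on leaving out 10 of the 12 arrays in turn, and that of COL4A1 on leaving out none.

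COL4A1 changed more than COL4A2 on the log2 scale. Their difference within arrays went from -3.62, -3.48 and -3.55 in control to -2.73, -2.80 and -2.97 with TGFβ1, a shift of 0.72 (exact permutation p = 0.1, the smallest possible). The COL4A2 probe was the brighter of the pair, so only the shift between groups is read, not the ratio of the chains. Of all spots on the 24 arrays, 0 were marked as saturated. Whether brightness compressed the COL4A2 change was not tested.

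In PLC/PRF/5 the type IV pair differed with galunisertib, while TGFβ1 gave the 2 genes like differences. COL4A1 was at -1.10, -1.09 and -1.23 in control, -0.83, -0.71 and -0.91 with TGFβ1, -1.79, -1.40 and -1.81 with galunisertib, and -1.60, -1.25 and -1.42 with both. COL4A2 stayed between 2.14 and 2.69 on all 12 arrays. Of the 4 genes that could be tested in this line (COL5A2, COL4A1, COL4A2 and COL7A1), galunisertib alone lowered only COL4A1, 1.44-fold (log2 -0.52, SE 0.13, adjusted p = 0.0393), where 5.43% of all 16663 genes changed. That call was lost on leaving out 5 of 6 arrays in turn. It was also lost with normexp (adjusted p = 0.157), median scaling (0.374), no filter on dim probes (0.0804) and the plain t-test (0.189).

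Added to TGFβ1, galunisertib lowered 2 of the 4 in PLC/PRF/5, COL4A1 1.53-fold (log2 -0.61, SE 0.13, adjusted p = 0.00331) and COL7A1, where 39.1% of all genes changed and 13.3% fell, with a median of -0.38 against 0.06 over all genes. TGFβ1 alone gave COL4A1 a difference of 0.32 (95% interval 0.05 to 0.60, adjusted p = 0.119) and COL4A2 one of 0.28 (0.02 to 0.54, adjusted p = 0.147), and it raised only COL5A2, 1 of 4, where 13.5% of all genes changed. The median of the 4 was 0.30 with TGFβ1 against -0.04 over all genes. Within arrays COL4A1 minus COL4A2 shifted by -0.62 with galunisertib (exact permutation p = 0.1, the smallest possible) and by 0.05 with TGFβ1 (exact permutation p = 0.8).

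COL7A1 had the same order of groups as COL1A1 in SNU-449. It was at 2.11, 2.25 and 2.03 in control, 3.05, 2.75 and 2.29 with TGFβ1, -0.37, 0.09 and 0.28 with galunisertib, and 1.90, 1.85 and 1.14 with both agents. The order from high to low was TGFβ1, control, both and galunisertib, and no neighbours overlapped. Galunisertib alone lowered it 4.38-fold (log2 -2.13, SE 0.25, adjusted p = 0.00109), with -2.48, -2.16 and -1.75 within the slides.

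Added to TGFβ1, galunisertib lowered COL7A1 2.10-fold (log2 -1.07, SE 0.25, adjusted p = 0.015), a call lost without TGFβ1 replicate 1 or replicate 2 (adjusted p = 0.0581 and 0.0551), with no filter on dim probes (0.0513) and by the plain t-test (0.111). TGFβ1 added to galunisertib raised it 3.09-fold (log2 1.63, SE 0.25, adjusted p = 0.0122). With TGFβ1 alone the difference of 0.57 did not pass (95% interval 0.01 to 1.12, adjusted p = 0.201), nor did the interaction of 1.06 (0.27 to 1.85, adjusted p = 0.167). Over the 12 SNU-449 arrays COL7A1 correlated with COL1A1 at r = 0.97 and COL4A1 with COL4A2 at r = 0.96, while COL1A1 correlated with COL4A1 at 0.79. These are descriptions over arrays that share their treatments.

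COL7A1 took another course in PLC/PRF/5. It was at -0.31, -0.13 and -0.24 in control, 0.13, -0.14 and -0.10 with TGFβ1, -0.05, -0.17 and -0.43 with galunisertib, and -1.44, -0.97 and -0.79 with both agents. The 3 single-agent and control groups overlapped, and the arrays with both agents lay below the other 9. Galunisertib alone gave a difference of 0.01 (95% interval -0.34 to 0.36). Added to TGFβ1 it lowered COL7A1 2.05-fold (log2 -1.04, SE 0.16, adjusted p = 0.000652), and TGFβ1 added to galunisertib lowered it 1.81-fold (log2 -0.85, SE 0.16, adjusted p = 0.0173), with -1.39, -0.80 and -0.36 within the slides, the largest on slide 1.

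The interaction was -1.05 (SE 0.23, adjusted p = 0.0202), 1 of 4 genes, where 8.77% of all genes passed. The interaction call was lost without TGFβ1 replicate 1, with median scaling (adjusted p = 0.151) and with no filter on dim probes (0.0573). The call of the fall with TGFβ1 added to galunisertib was lost without galunisertib replicate 1, with median scaling (0.0855) and by the plain t-test (0.202). TGFβ1 added to galunisertib changed 2 of 4 genes in this line, COL5A2 upward and COL7A1 downward, where 8.54% of all genes changed. COL7A1 thus went up in SNU-449 and down in PLC/PRF/5 when TGFβ1 was added to galunisertib. That difference between the lines was not tested itself.

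COL6A3 was measured in SNU-449 only, by a pair of probes. The brighter one was at 0.67, 0.88 and 0.84 in control, 1.42, 1.30 and 1.33 with TGFβ1, -0.51, 0.81 and 0.72 with galunisertib, and 1.00, 0.95 and 1.09 with both agents. The TGFβ1 arrays lay above all others, and 1 galunisertib array stood apart below the rest. No comparison of treatments passed, with 0.55 for TGFβ1 (95% interval -0.07 to 1.17, adjusted p = 0.264) and -0.46 for galunisertib (-1.08 to 0.16, adjusted p = 0.342). The dimmer probe gave 0.24 for TGFβ1 and a mean of -2.61 with galunisertib against -1.61 in control, and its low galunisertib array (-4.03, against -1.82 and -1.99) was another one than the low array of the brighter probe. COL12A1, a collagen that coats fibrils, was at or near the floor on all arrays by both of its probes. One of the probes was well above background on 2 of 3 PLC/PRF/5 TGFβ1 arrays, at -3.99 and -3.90, and COL12A1 entered no test.

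The responses of the 2 lines were then compared directly over all 24 arrays. The TGFβ1 effect in SNU-449 minus that in PLC/PRF/5 passed for 3 of the 9 tested genes, COL4A1 (log2 1.13, SE 0.18, adjusted p = 0.000306), COL1A1 (0.92, SE 0.26, adjusted p = 0.0307) and COL1A2 (0.45, SE 0.12, adjusted p = 0.0204), where 8.63% of all genes differed. The same difference for galunisertib passed for 2 of 9, COL1A1 (-2.61, SE 0.26, adjusted p = 4.65e-06) and COL7A1 (-2.14, SE 0.31, adjusted p = 0.000261), where 5.89% differed. For COL1A1, COL1A2, COL3A1 and COL6A3 the PLC/PRF/5 effect is fixed at 0 by the floor. Their values only restate the change in SNU-449 and show no difference between the lines. Their PLC/PRF/5 arrays also enter the fit without any spread, so their adjusted p is not read as evidence of such a difference. Because the counts include these genes, they describe the calls and support nothing further. The COL1A1 difference in the TGFβ1 effect turned to -1.51 with the authors' values (adjusted p = 0.35), and its call was lost with normexp (0.057), quantile normalization (0.0662), no filter (0.0632) and a lower floor (0.252) and on leaving out 10 of the 12 arrays in turn. The COL1A2 call was lost with quantile normalization (adjusted p = 0.0552), median scaling (0.368) and the authors' values (0.0553). With quantile normalization or the authors' values the 3 calls became 1. COL4A1 and COL7A1 were measured in both lines. For COL4A2 the difference in the TGFβ1 effect was 0.45 (95% interval 0.11 to 0.80, adjusted p = 0.106).

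Beyond the 10 genes, 34 other collagen genes had a probe, and 16 of them could be tested in SNU-449. TGFβ1 raised 5 and lowered 3 of the 16, where 10.5% of all genes changed, with a median of -0.0042 against 0.02 over all genes. The largest rises were of COL4A4 and COL4A3, further chains of type IV collagen, COL20A1, and COL9A3, a chain of cartilage type IX collagen. COL4A4 was at 0.49, 0.97 and 1.05 in control, 3.09, 3.02 and 3.25 with TGFβ1, -0.27, -0.32 and 0.09 with galunisertib and 0.76, 0.29 and -0.59 with both. TGFβ1 raised it 4.85-fold (log2 2.28, SE 0.29, adjusted p = 0.000776), and galunisertib added to TGFβ1 lowered it 7.80-fold (log2 -2.96, adjusted p = 8.66e-05).

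COL4A3 was dimmer, at -3.10, -2.71 and -3.33 in control and -0.80, -1.27 and -1.78 with TGFβ1, a 3.39-fold rise (log2 1.76, SE 0.25, adjusted p = 0.00134). It was at the floor on all 3 galunisertib arrays, at least 1.86-fold below control (adjusted p = 0.0279). Like COL4A1 and COL4A2, COL4A3 and COL4A4 lie head to head, on chromosome 2, with 418 bases between their start sites (positions 227164205 for COL4A4 and 227164624 for COL4A3, GRCh38.p14). In SNU-449 all 4 of these type IV genes were higher on every TGFβ1 array than on every control array, as were 20.7% of all genes tested. COL4A3 and COL4A4 were named for their large rises in this same comparison, so the count describes them and supports nothing further. In PLC/PRF/5 COL4A3 was at the floor on all arrays. COL4A4 also passed the interaction test (-1.96, adjusted p = 0.0377).

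**Figure D4:**
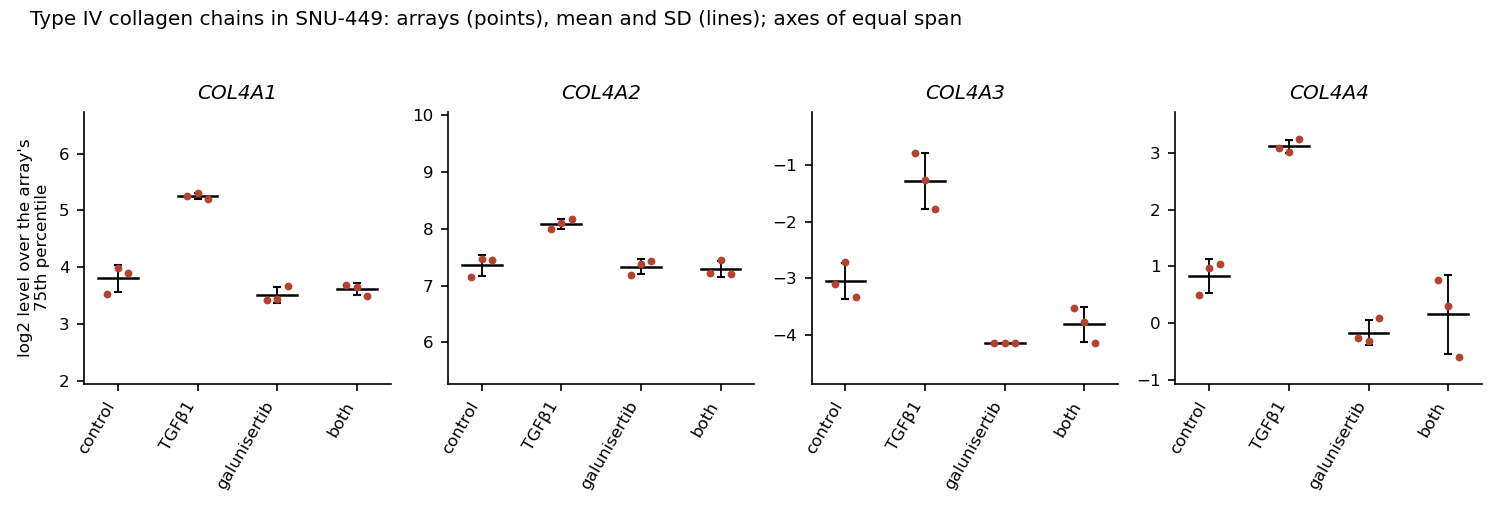
Log2 level over the 75th percentile of the array for COL4A1, COL4A2, COL4A3 and COL4A4 in SNU-449, with arrays as points, mean and SD as black lines and axes that span the same number of log2 units. Each gene is highest on the 3 TGFβ1 arrays, with rises of 1.45, 0.73, 1.76 and 2.28, and COL4A3 lies at the floor with galunisertib.

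COL20A1 rose 4.34-fold with TGFβ1 (log2 2.12, adjusted p = 1.04e-05) and fell 6.17-fold when galunisertib was added (log2 -2.62, adjusted p = 1.65e-06). Its second, dimmer probe gave 0.86 and -1.12. COL9A3 rose 4.16-fold with TGFβ1 (log2 2.06, adjusted p = 0.000181). COL21A1 went the other way, at 0.50, 0.64 and 0.48 in control, -0.86, -0.72 and -1.02 with TGFβ1 and 1.49, 1.38 and 1.87 with galunisertib. It fell with TGFβ1, rose 2.06-fold with galunisertib (log2 1.04, SE 0.13, adjusted p = 0.00155) and rose 4.79-fold when galunisertib was added to TGFβ1 (log2 2.26, adjusted p = 2.56e-06).

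Galunisertib alone raised 3 and lowered 1 of the 16 other collagen genes in SNU-449 (7.47% of all genes changed). Galunisertib added to TGFβ1 raised 4 and lowered 6 (17.1%), and TGFβ1 added to galunisertib changed 0 by limma, with 4 at an unadjusted p below 0.05 (1.9%). In PLC/PRF/5, of 13 tested, TGFβ1 raised 1 (13.5% of all genes changed), and galunisertib alone changed 0 by limma with 0 at an unadjusted p below 0.05 (5.43%). Galunisertib added to TGFβ1 raised 1 and lowered 6 (39.1%), among them COL9A3 (2.11-fold, log2 -1.08, adjusted p = 0.0141). TGFβ1 added to galunisertib lowered 1 (8.54%). Untreated, 16 of 19 differed between the lines, 11 higher and 5 lower in SNU-449, where 68.6% of all genes differed and 34.6% were higher. Among them were COL13A1, a transmembrane collagen, at least 283-fold higher in SNU-449, COL8A1 at least 30.1-fold and COL21A1 at least 22.9-fold. COL4A4 was well above background on 1 of 3 PLC/PRF/5 control arrays, at -4.04, and at the floor on the others, so no fold is given.

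A list of 32 genes for collagen modification, folding, export, propeptide cleavage and cell-surface reception moved in both directions. In SNU-449, 26 were tested, and TGFβ1 raised 6 and lowered 5, where 10.5% of all genes changed (median 0.20 against 0.02 over all genes). ITGA10, a collagen-binding integrin chain, went from 0.81, 0.52 and 0.25 in control to -1.12, -1.53 and -1.63 with TGFβ1, to 1.46, 1.71 and 1.69 with galunisertib and to 1.35, 0.79 and 1.53 with both. It fell 3.88-fold with TGFβ1 (log2 -1.95, SE 0.21, adjusted p = 0.000273) and rose 2.13-fold with galunisertib (log2 1.09, adjusted p = 0.015). ITGA1, the collagen-binding partner chain of integrin beta 1, rose 2.53-fold with TGFβ1 (log2 1.34, adjusted p = 0.000308) and passed the interaction test (-1.32, adjusted p = 0.00979).

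Galunisertib alone raised 3 of the 26 and lowered 0, where 7.47% of all genes changed. ADAMTS3, which cleaves procollagen propeptides, was among them, from -1.42, -0.82 and -0.93 to -0.01, -0.12 and 0.32 (2.17-fold, log2 1.12, adjusted p = 0.00359), and ADAMTS3 also rose 2.26-fold when galunisertib was added to TGFβ1. That last comparison raised 6 and lowered 9 of the 26, where 17.1% of all genes changed. Among the falls were PLOD1, a lysyl hydroxylase (log2 -1.40, adjusted p = 0.0149), and MIA3, which helps load procollagen into transport vesicles (-2.14, adjusted p = 0.012). Both rested on 2 of the 3 arrays with both agents, where PLOD1 was at 0.89, -0.77 and -0.39 and MIA3 at 1.92, -0.15 and -0.29. The other 4 MIA3 probes gave differences between -0.30 and 0.17. MIA3 was also the 1 gene of the list that TGFβ1 added to galunisertib changed (-2.31, adjusted p = 0.0418), where 1.9% of all genes did.

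Of that list, 25 genes were tested in PLC/PRF/5. TGFβ1 raised 2 and lowered 3 (13.5% of all genes changed), galunisertib alone raised 1 (5.43%), galunisertib added to TGFβ1 raised 6 and lowered 3 (39.1%), and TGFβ1 added to galunisertib changed 0 by limma, with 7 at an unadjusted p below 0.05 (8.54%). ITGA10 rose there too when galunisertib was added to TGFβ1 (3.20-fold, log2 1.68, adjusted p = 5.17e-06). Untreated, 21 of 27 differed between the lines, 10 higher and 11 lower in SNU-449, near the 68.6% of all genes that differed. SERPINH1, the collagen chaperone HSP47, stood out on the low side, at -2.97, -2.98 and -3.22 in SNU-449 and 4.70, 4.68 and 4.83 in PLC/PRF/5 (222-fold, log2 -7.80, adjusted p = 5.29e-19), by 1 probe. COLGALT2, a collagen galactosyltransferase, was at least 23.3-fold higher in SNU-449, ADAMTS3 at least 7.56-fold and BMP1, the procollagen C-proteinase, 5.61-fold.

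The genes whose pattern over the 12 SNU-449 arrays was most like that of COL1A1, among 13937 genes well above background on all 12, were DACT1, LHX1, FOXS1, KLF7 and DNM3. Their Pearson correlations with COL1A1 were 0.995, 0.993, 0.993, 0.990 and 0.989. DACT1, for example, had mean levels of 2.48 in control, 3.47 with TGFβ1, -0.51 with galunisertib and 1.53 with both agents. The 12 arrays share 4 treatments and 3 slides, so these are descriptions of likeness.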

How the data were processed

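Each of the 24 arrays was an Agilent one-colour SurePrint G3 array. The authors deposited Feature Extraction (version 10.7.3.1) files, whose background-subtracted intensity per spot was used here, and a table of normalized log2 values for 30913 probes, which the authors had deposited centred per probe and which served as an alternative. Depth has no meaning for arrays, and 3 arrays a group limit the precision.

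Intensities were divided by the 75th percentile of their array, floored at 5.701% of it (the median, over the arrays, of each array's weakest well-above-background spot, a value not set in the plan) and taken to log2, after leaving out control spots and 111 to 216 outlier spots an array. Spots of a probe were averaged and the brightest probe of a gene was used. Probes were named by RefSeq accession (31104) or LNCipedia (10719), and 16378 stayed unnamed. Genes well above background on all arrays of at least 1 group were tested with limma 3.58.1 in R 4.3.3, each line by itself and all 24 arrays for comparisons of lines, with Benjamini-Hochberg adjustment over all genes tested and a call at 0.05. The tests ran on simulated data first. The members, gene lists and tests were chosen with earlier results of these data known. Beyond the 10, at most 4 genes per list and comparison were named, those called with a fold above 2 and the largest difference, with the 5 genes most correlated with COL1A1.

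Replicate numbers mark the slide. Deviations from group means of same-numbered arrays correlated above 0.1 in all pairs in 3 comparisons, namely SNU-449 with TGFβ1 or control (0.13 to 0.22), PLC/PRF/5 with TGFβ1 or control (0.17 to 0.31), and SNU-449 with both agents or TGFβ1 alone (0.10 to 0.27). Alternatives were normexp (on median signals, since the files hold no mean signals), quantile and median scaling, no filter or one on every array, the mean of the probes of a gene, a lower floor, the authors' values, all arrays in the fit, the slide as a block, a plain t-test of each gene (without the random variance model of the study's methods) and leaving out each array.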

Additional observations from a re-analysis of the deposited data

Results flagged for a closer look

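The effects of TGFβ1 and of galunisertib were compared between SNU-449 and PLC/PRF/5 over all 24 arrays with limma, and 5 differences in the collagen genes passed. The effect of TGFβ1, as a log2 difference from control, was larger in SNU-449 by 0.9224 for COL1A1, by 0.4515 for COL1A2 and by 1.1275 for COL4A1. The effect of galunisertib was lower in SNU-449 by a log2 difference of -2.6107 for COL1A1 and of -2.1396 for COL7A1. COL1A1 and COL1A2 were not well above background on any PLC/PRF/5 array, so their values hold no measured response of that line. They restate the change in SNU-449 and show no difference between the lines. The COL1A1 difference in the TGFβ1 effect turned to -1.51 with the authors' values, and its call was lost with normexp, quantile normalization, no filter and a lower floor. The COL1A2 call was lost with quantile normalization, median scaling and the authors' values. COL4A1 and COL7A1 were measured in both lines, and their differences kept an adjusted p below 0.05 without any 1 of the 12 arrays.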

How the results depend on the processing

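Numbers of called collagen genes moved as follows. Untreated, 8 of 9 tested became 4 of 4 tested with a filter on every array. For TGFβ1 in SNU-449, 4 became 2 with quantile normalization, with no filter and with the replicate block, which lost COL1A1 and COL1A2 and moved no other count, and leaving out 1 array gave 2 to 3. COL1A2 also lost its call there with median scaling and the plain t-test. Galunisertib alone in SNU-449 gave 2 on leaving out any array and 0 by the plain t-test after adjustment. Galunisertib added to TGFβ1 in SNU-449 gave 4, with 6 in the fit of all 24 arrays (COL1A2 and COL5A2 joined), 5 with the authors' values (COL1A2 joined), 3 with no filter (COL7A1 lost) and 3 to 5 on leaving out 1 array, and TGFβ1 added to galunisertib 0 in place of 2 by the t-test. The SNU-449 interaction gave 1 in place of 2 with quantile normalization, median scaling and no filter, 4 with all 24 arrays, and 1 to 2 on leaving out 1 array. In PLC/PRF/5, TGFβ1 gave 2 with quantile normalization and 0 with median scaling and the t-test in place of 1, and 0 to 1 on leaving out 1 array. Galunisertib alone there gave 0 in place of 1 with normexp, median scaling, no filter and the t-test, and 0 to 1 on leaving out 1 array. Galunisertib added to TGFβ1 gave 1 in place of 2 with median scaling, and 2 to 3 on leaving out 1 array. TGFβ1 added to galunisertib gave 0 with median scaling and the t-test and 1 with no filter in place of 2, and 0 to 2 on leaving out 1 array. The PLC/PRF/5 interaction gave 0 in place of 1 with median scaling and no filter, and 0 to 1 on leaving out 1 array. The line difference in the TGFβ1 effect gave 1 in place of 3 with quantile normalization, the authors' values and the filter on every array (only 4 genes tested), and 1 to 3 on leaving out 1 array. That in the galunisertib effect gave 1 in place of 2 with the filter on every array (only 4 genes tested), and 2 to 3 on leaving out 1 array.

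For COL1A1 the line difference in the TGFβ1 effect turned to -1.51 with the authors' values. The cause of these moves was not tested. Median scaling also moved the median of all genes. For the SNU-449 interaction it was -0.29 with median scaling against -0.07 in the main fit. For the untreated lines it was 0.28 against -0.06. Over single genes, 508 of the recomputed values kept direction and call, 89 kept direction but lost the call and 1 turned. The signal over background limits COL5A1 and COL12A1 in SNU-449 and COL1A1, COL1A2, COL3A1, COL5A1, COL6A3 and COL12A1 in PLC/PRF/5.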
